A study of Mus musculus with 9 samples.

Results

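Hedgehog signalling was followed through 6 genes, Ptch1, Smo, Sufu, Gli1, Gli2 and Gli3, in the developing mouse cortex with and without Cnot3. The genes were chosen as the core of the pathway and matched by symbol to the Ensembl identifiers of the count table, and all 6 were found among its 57010 genes. Hedgehog ligands bind PTCH1 and release SMO, a membrane protein that acts at the primary cilium. SUFU holds the GLI transcription factors back. Without signal GLI3 is cut into a repressor, and with signal GLI2 acts mainly as an activator. In the dorsal telencephalon Gli3 is abundant in radial glial cells (RGCs) and its repressor form is known for keeping ventral genes off, while Gli1 and Ptch1 are target genes that report on active signalling.

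RNA was sequenced from microdissected cortices of single embryos at E12.5, with 3 control embryos labelled wild type (Ctrl), 3 Cnot3 conditional knockouts (cKO, Cnot3 lox/lox with Emx1-Cre) and 3 double conditional knockouts (dcKO, Cnot3 lox/lox and Trp53 lox/lox with Emx1-Cre). Whether the Ctrl embryos carried Cre or floxed alleles is not stated in the sources used here. Emx1-Cre recombines in dorsal telencephalic RGCs and in what they give rise to, so other cells of the dissected tissue keep both genes. CNOT3 is a subunit of the CCR4-NOT deadenylase, which removes poly(A) tails, and the dcKO additionally lacks p53. Levels are given in CPM, the reads of a gene relative to the size of its library after TMM scaling.

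The libraries held between 21193798 and 45073349 reads counted on genes. Cnot3 was between 98.2 and 117 CPM in Ctrl, between 14.6 and 17.3 CPM in cKO, and at 7.33, 48.2 and 19.0 CPM in dcKO replicates 1, 2 and 3. Trp53 was at 15.1, 110 and 20.6 CPM in the same dcKO embryos and between 215 and 254 CPM in Ctrl. The second dcKO embryo thus kept more of both transcripts than the other dcKO embryos. The dcKO libraries were unequal in the Hedgehog genes too, so each embryo's value is given. In bulk tissue, fewer cells that express a gene and less RNA of it per cell cannot be told apart.

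More than 10 reads in every embryo were found for 5 of the 6 genes, which were tested among 13680 genes. The exception was Gli1. Calls required an adjusted p-value (Benjamini-Hochberg) below 0.05 with more than a 2-fold difference, or 1 on the log2 scale. edgeR's quasi-likelihood test called 0 of the 5 in any comparison, against 0.0146% of all tested genes in cKO against Ctrl, 0% in dcKO against Ctrl and 0.0146% in dcKO against cKO. At an unadjusted p under 0.05, edgeR had 2 of the 5 lower in cKO (background 11.7%) and 0 higher (15.3%). In dcKO it had 2 lower (11.2%) and 1 higher (18%). DESeq2 called 2 of the 5, Gli2 and Smo, as lower in cKO (background 3.87%) and none as higher (4.94%). In dcKO DESeq2 called 1, Gli2, as lower (3.79%) and none as higher (4.66%). The embryos of cKO lay entirely below Ctrl for 4 of the 5 genes (background 28%) and entirely above for 1 (29.2%). In dcKO the groups were apart for 2 genes, both lower (11.2%), and for none in the upward direction (15.6%). In edgeR's fit all 9 embryos share 1 estimate of the spread. With only the 6 embryos of Ctrl and cKO, edgeR called both Gli2 (adjusted p = 9.7e-05) and Smo (adjusted p = 9.0e-05) lower in cKO, among 1758 genes in all (5.94% of all tested genes lower). It also called both lower in cKO without dcKO replicate 1 (background 2.93%), 2 (2.74%) or 3 (5.46%). In dcKO it called Gli2 lower without dcKO replicate 2 (-1.16, adjusted p = 0.0320, background 2.58%) and without dcKO replicate 3 (-1.32, adjusted p = 0.00186, background 15.2%), and in the latter case also Ptch1 as higher (1.20, adjusted p = 0.0134, background 8.44%). Gli2 in dcKO was not called without dcKO replicate 1 (-0.82, adjusted p = 0.117) or with only the 6 embryos of Ctrl and dcKO (-1.13, adjusted p = 0.200), and 0 genes in all were called in dcKO in those fits. The median log2 fold change of the 5 genes was -0.19 in cKO and -0.29 in dcKO, where that of all tested genes was 0.0098 and 0.11.

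**Figure D1:**
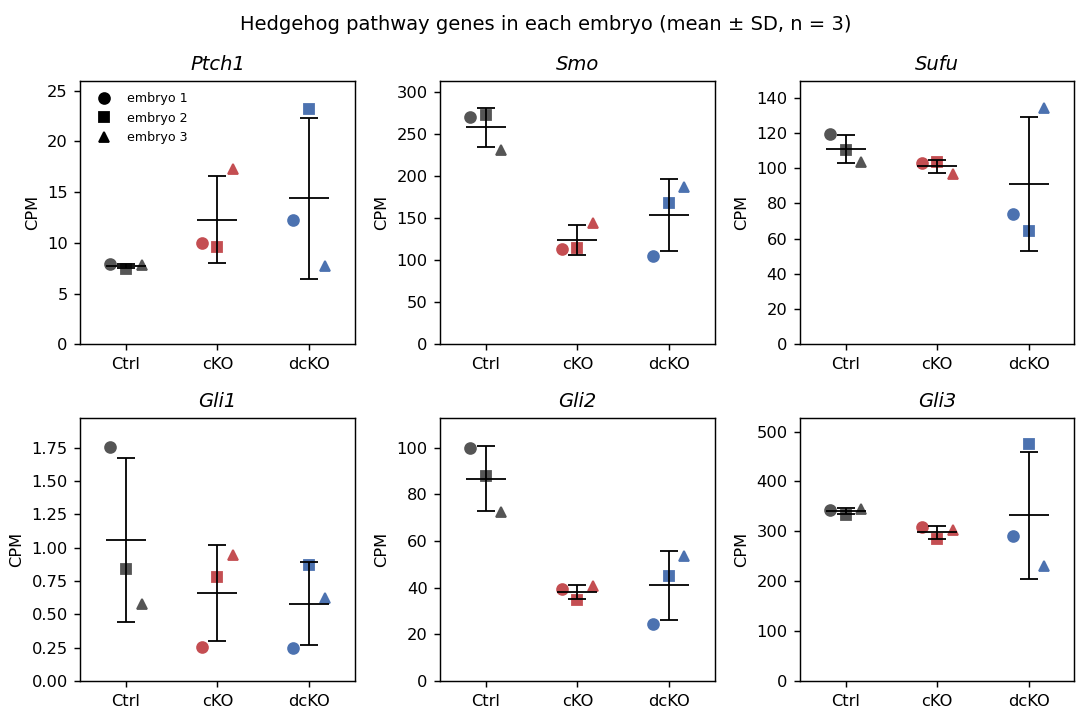
CPM of the 6 Hedgehog pathway genes on linear axes that start at 0, with 1 point per embryo and the mean ± SD of 3 embryos per genotype. Smo and Gli2 were lower in every cKO and dcKO embryo than in every Ctrl embryo, Gli3 was abundant in all 9 embryos, and the dcKO embryos were the most spread for Gli3, Sufu and Ptch1.

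Ptch1 (ENSMUSG00000021466) encodes the receptor that restrains SMO and is itself a target gene. It lies on chromosome 13 from 63508328 to 63573598 of GRCm38, on the minus strand. Its level was 7.87, 7.44 and 7.82 CPM in Ctrl, 9.997, 9.59 and 17.2 CPM in cKO, and 12.2, 23.2 and 7.74 CPM in dcKO. All cKO embryos were above Ctrl, and dcKO replicate 3 was at the Ctrl level while the other dcKO embryos were above it. The log2 fold change was 0.67 in cKO (SE 0.40, edgeR adjusted p = 0.312) and 0.90 in dcKO (SE 0.40, adjusted p = 0.170), and neither passed the test. In cKO it lay between 0.34 and 0.82 as each embryo was left out, and in dcKO between 0.37 and 1.20.

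Smo (ENSMUSG00000001761), the transducer that PTCH1 restrains, was lower in both mutants. It lies on chromosome 6 from 29735503 to 29761365, on the plus strand. It measured 270, 272 and 231 CPM in Ctrl, 113, 115 and 144 CPM in cKO, and 105, 168 and 187 CPM in dcKO. No mutant embryo reached the lowest Ctrl embryo. The log2 fold change was -1.05 in cKO (SE 0.22, edgeR adjusted p = 0.0509, DESeq2 adjusted p = 0.00116), or 0.48 of the Ctrl level. It was -0.75 in dcKO (SE 0.22, edgeR adjusted p = 0.0706, DESeq2 adjusted p = 0.0199), short of the fold threshold. An exact permutation test (two-sided) gave p = 0.1 for each mutant, the smallest that 3 embryos per group allow.

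Sufu (ENSMUSG00000025231), the cytoplasmic inhibitor of GLI proteins, was close to Ctrl in cKO. It lies on chromosome 19 from 46396896 to 46488804, on the plus strand. Ctrl embryos had 119, 110 and 103 CPM and cKO embryos 103.0, 103.3 and 96.8 CPM, a log2 fold change of -0.13 (SE 0.25, adjusted p = 0.761). The third Ctrl embryo and the second cKO embryo were almost equal, so the gap between the groups was smaller than the spread within Ctrl. The dcKO embryos had 74.1, 64.1 and 134 CPM, 2 below and 1 above all Ctrl embryos, with a log2 fold change of -0.29 (SE 0.25, adjusted p = 0.458). Without the third dcKO embryo it was -0.68 (edgeR adjusted p = 0.00191), short of the fold threshold, in a fit that called 15.2% of all tested genes lower. Without the first or the second dcKO embryo it was -0.16 or -0.10, and with the GC correction described below it was 0.13.

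Gli2 (ENSMUSG00000048402), the main activator of the family, had the most negative log2 fold change of the 5 tested genes in both mutants. It lies on chromosome 1 from 118834132 to 119053619, on the minus strand. Ctrl embryos had 99.9, 88.0 and 72.2 CPM. Its level was 39.5, 34.9 and 40.5 CPM in cKO, and 24.5, 45.0 and 53.4 CPM in dcKO. All mutant embryos were below all Ctrl embryos, and the cKO embryos were closer to one another than those of the other genotypes. The log2 fold change was -1.18 in cKO (SE 0.27, edgeR adjusted p = 0.0514, DESeq2 adjusted p = 0.00205) and -1.08 in dcKO (SE 0.27, edgeR adjusted p = 0.0531, DESeq2 adjusted p = 0.00413). The exact permutation test gave p = 0.1 in both. In cKO 3.68% of tested genes had a lower log2 fold change than Gli2 and 5.23% a lower one than Smo.

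Gli3 (ENSMUSG00000021318), the main source of the GLI repressor, was the most abundant of the 6 by reads. It lies on chromosome 13 from 15463235 to 15730026, on the plus strand. Ctrl embryos had 343, 333 and 346 CPM and cKO embryos 308, 284 and 302 CPM. The cKO embryos were below all Ctrl embryos, at a log2 fold change of -0.19 (SE 0.24, edgeR adjusted p = 0.636), and leaving out any embryo kept it between -0.22 and -0.16. The dcKO embryos had 291, 475 and 230 CPM, on both sides of Ctrl, with a log2 fold change of -0.04 (SE 0.24, adjusted p = 0.929). The direction in dcKO turned with the embryos used, since it was 0.05 without the first dcKO embryo and 0.17 without the third. In GENCODE M21 188 exonic bases of Gli3 overlap Gm6556 on the opposite strand, a gene with 69 to 203 reads per embryo, and the strand setting of the counting is not stated.

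Gli1 (ENSMUSG00000025407), the target gene and activator commonly used to read out Hedgehog activity, was near the limit of detection in all genotypes. It lies on chromosome 10 from 127329882 to 127341974, on the minus strand. It had 43, 17 and 16 reads in Ctrl, 7, 21 and 25 in cKO, and 9, 34 and 15 in dcKO. In CPM these were 1.75, 0.84 and 0.58 in Ctrl, 0.26, 0.78 and 0.94 in cKO, and 0.25, 0.87 and 0.62 in dcKO. The 95% exact Poisson interval, which covers counting error only, ran from 1.27 to 2.36 CPM in the highest Ctrl embryo and from 0.33 to 0.94 in the lowest. The intervals of these Ctrl embryos did not overlap, so Ctrl embryos differed by more than counting error. The groups overlapped, and no difference was detectable against that spread. Exons of Gli1 overlap those of Arhgap9 on the opposite strand by 62 bases, a gene with 0 to 30 reads per embryo, and whether any reads of Gli1 came from it was not tested. Fitted without a filter, Gli1 had a log2 fold change of -0.74 in cKO (SE 0.87, adjusted p = 0.672) and -0.97 in dcKO (SE 0.87, adjusted p = 0.572).

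Between dcKO and cKO, edgeR had none of the 5 at an unadjusted p under 0.05 (background 4.42%), and DESeq2 called none (0.38%). No member was entirely lower (3.63%) or entirely higher (2.62%) in dcKO. The log2 difference was 0.10 for Gli2 (SE 0.27), 0.31 for Smo (SE 0.22), 0.16 for Gli3 (SE 0.24), 0.23 for Ptch1 (SE 0.40) and -0.15 for Sufu (SE 0.25), with adjusted p between 0.889 and 0.987. These p-values do not show that the mutants were alike, and without the third dcKO embryo Sufu was at -0.55 (edgeR adjusted p = 0.0180). That fit called 1241 genes in all between the mutants. Without the first dcKO embryo Sufu was at -0.03, and without the second at 0.04. Both mutants were tested against the same 3 Ctrl embryos, so their fold changes are not independent of each other.

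The 6 genes differ in the base composition of their transcripts, and the fold changes of all tested genes varied with it. When these were divided into 4 bins of GC content, the bin with the highest (54.2 to 71.3%, 3390 genes) had a median log2 fold change of -0.43 in cKO and -0.49 in dcKO. The bin with the lowest (31.0 to 44.8%, 3391 genes) had 0.22 and 0.52. The longest transcripts of Smo (57.8% GC), Gli2 (57.5%) and Sufu (55.8%) belong to the highest bin, and those of Gli3 (48.4%) and Ptch1 (47.8%) lie near the median of 49.5%. At codon position 3, Smo had 73.1% G or C, above 89.5% of the coding genes tested, Gli2 had 65.9% and Gli3 57.7%.

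With a GC correction, which removes the smooth trend of the counts with GC content in each embryo, Gli2 had a log2 fold change of -0.77 in cKO (SE 0.27, edgeR adjusted p = 0.0805) and Smo -0.63 (SE 0.28, adjusted p = 0.142). Corrected Gli2 was 69.2, 65.1 and 67.0 CPM in Ctrl and 41.8, 32.1 and 44.3 CPM in cKO, and corrected Smo was 183, 199 and 213 CPM in Ctrl and 120, 106 and 159 CPM in cKO. Both genes thus stayed entirely below Ctrl in cKO, at smaller differences. In dcKO neither did, with Gli2 at -0.36 (SE 0.27, adjusted p = 0.419) and Smo at 0.03 (SE 0.28, adjusted p = 0.963). Corrected dcKO values were 40.7, 81.2 and 35.1 CPM for Gli2 and 178, 307 and 122 CPM for Smo, with the second embryo the highest in each. Sufu had the opposite sign, at 0.11 in cKO and 0.13 in dcKO, and Gli3 was at -0.34 in cKO (SE 0.21, adjusted p = 0.261) and -0.18 in dcKO. With the correction 3 of the 5 members were entirely below Ctrl in cKO (background 31.9%) and 1 entirely above (25.3%), and none was apart from Ctrl in dcKO in either direction (background 25.3%). The correction removes any trend with GC content, whatever its origin, and the part of library preparation in it was not tested.

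**Figure D2:**
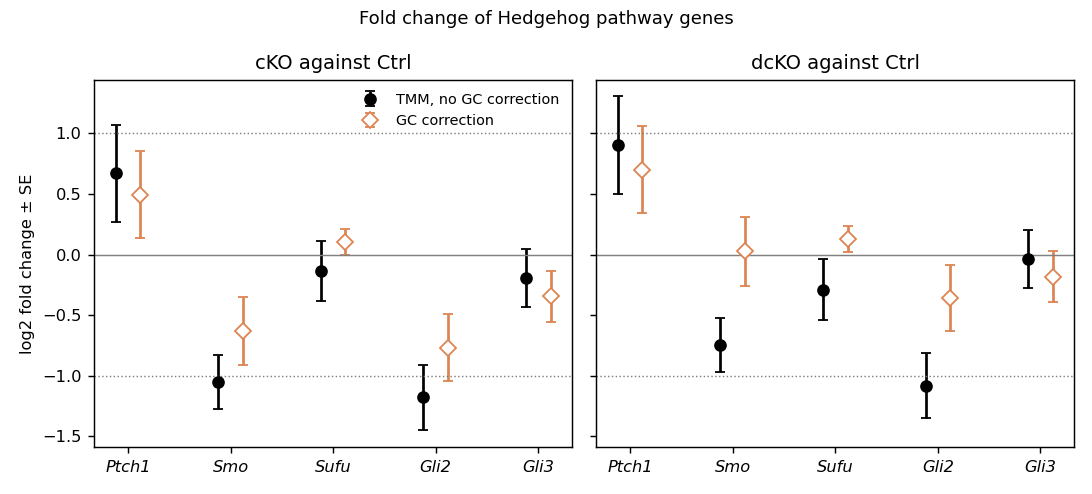
Log2 fold changes with their standard errors for the 5 tested members, without GC correction (black) and with it (open orange diamonds), and with dotted lines at the fold threshold. In cKO Gli2 and Smo stayed below 0 under both, at -1.18 and -0.77 for Gli2, while in dcKO the corrected value of Smo was 0.03.

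The windows before the start sites of Gli2 and Smo are shown because these members were lower in every mutant embryo before the GC correction. RefSeq on GRCm38.p6 gave a start for 5 of the 6 members, and Gli1 had no entry. The 250 bases upstream of Gli2 lie at chr1:119053620-119053869 on the minus strand and those of Smo at chr6:29735247-29735496 on the plus strand. They are written 5′ to 3′ on the strand of the gene, with CpG in capitals.
Gli2: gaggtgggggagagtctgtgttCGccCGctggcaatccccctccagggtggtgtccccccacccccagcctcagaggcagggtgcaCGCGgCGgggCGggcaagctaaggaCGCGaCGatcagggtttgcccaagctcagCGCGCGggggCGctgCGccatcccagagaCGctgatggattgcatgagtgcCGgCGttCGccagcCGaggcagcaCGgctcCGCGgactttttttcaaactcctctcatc
Smo: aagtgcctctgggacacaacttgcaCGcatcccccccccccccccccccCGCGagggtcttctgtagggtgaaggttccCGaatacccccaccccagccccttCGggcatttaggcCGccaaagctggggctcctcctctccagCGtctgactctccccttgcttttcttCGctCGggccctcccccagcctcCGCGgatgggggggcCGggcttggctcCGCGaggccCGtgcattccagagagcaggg
Gli2 had 22 CpG and Smo 15, where the median of 32851 such windows was 6. Gli3 had 34, Ptch1 41 and Sufu 8, so a high CpG count was no property of Gli2 and Smo alone. The letters GACCACCCA, which GLI proteins are known to bind, were looked for on both strands from 250 bases before to 50 after each start. None of the 5 members' windows held them, nor did most others (83 of 32851, 0.253%).

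Levels of different genes were compared per kilobase of exon (RPKM, the CPM divided by the length of all exons in kilobases). Ctrl embryos had 45.8 ± 4.1 RPKM of Smo (SD, n = 3), 35.5 ± 0.71 of Gli3, 14.4 ± 1.05 of Sufu, 12.6 ± 2.02 of Gli2, 0.54 ± 0.017 of Ptch1 and 0.21 ± 0.12 of Gli1. Sufu was above Gli2 in each of the 3 Ctrl embryos although their ranges overlapped, and with the longest transcript as the length they were at 24.5 and 13.1 RPKM. In cKO the order was Gli3 (31.1 ± 1.3 RPKM), Smo (22.04 ± 3.1), Sufu (13.1 ± 0.47), Gli2 (5.57 ± 0.44), Ptch1 (0.87 ± 0.30) and Gli1 (0.13 ± 0.072). Smo was thus above Gli3 in all 3 Ctrl embryos and below it in all 3 cKO embryos. In dcKO Gli3 was at 34.6 ± 13.3 RPKM and Smo at 27.3 ± 7.6, and their ranges overlapped.

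**Figure D3:**
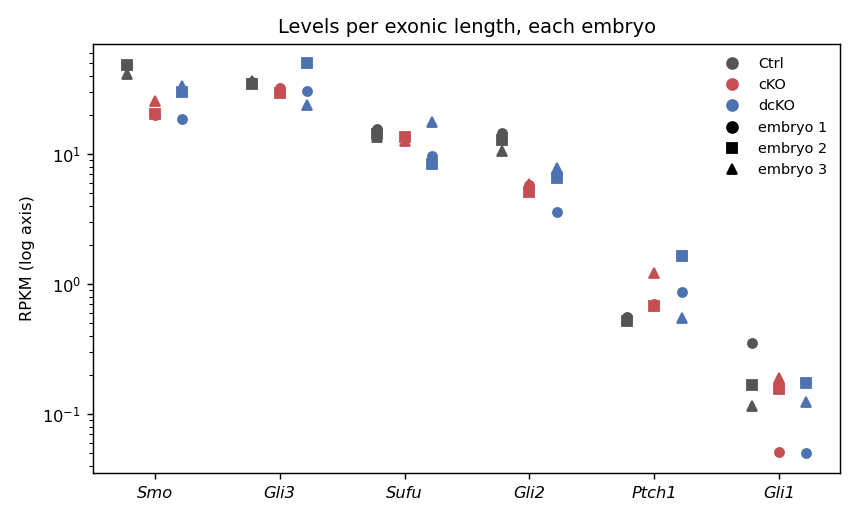
RPKM of the 6 genes in each embryo on a log axis, with colours for genotype and shapes for embryo number. Smo and Gli3 are the 2 highest genes in all 9 embryos, and Ptch1 and Gli1 are the 2 lowest.

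Within an embryo, the ratio of Gli3 to Gli2 compares the main repressor source with the main activator. On the per-length scale it was 2.46, 2.71 and 3.43 in Ctrl, 5.58, 5.84 and 5.34 in cKO, and 8.50, 7.56 and 3.09 in dcKO. All cKO embryos were above all Ctrl embryos, by 1.97-fold in the mean of logs (exact permutation p = 0.1, the smallest possible), and the third dcKO embryo lay within Ctrl (2.05-fold, exact p = 0.2). With the GC correction the ratio was 3.91, 3.91 and 3.84 in Ctrl, 4.99, 6.22 and 4.69 in cKO, and 4.77, 4.02 and 4.82 in dcKO. Both mutants then lay above Ctrl, by 1.35-fold and 1.16-fold, each at exact p = 0.1.

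The ratio of Gli3 to Smo was 0.75, 0.72 and 0.88 in Ctrl, 1.60, 1.45 and 1.23 in cKO, and 1.62, 1.66 and 0.72 in dcKO. It was 1.82-fold higher in cKO (exact p = 0.1) and overlapped Ctrl in dcKO (exact p = 0.3). Its crossing of 1 depends on the lengths used, since with the longest transcript 2 of 3 cKO embryos were above 1 and with the GC correction 2 of 3 Ctrl embryos were. With that correction the groups overlapped in cKO (1.24-fold, exact p = 0.2) and dcKO (0.89-fold, exact p = 0.3). Gli2 and Smo kept their ratio in cKO to within the spread of the embryos, at 0.27 ± 0.025 in Ctrl and 0.26 ± 0.029 in cKO (SD, n = 3, exact p = 0.4). In dcKO it was 0.21 ± 0.022, below all Ctrl embryos (exact p = 0.1), with or without the GC correction.

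**Figure D4:**
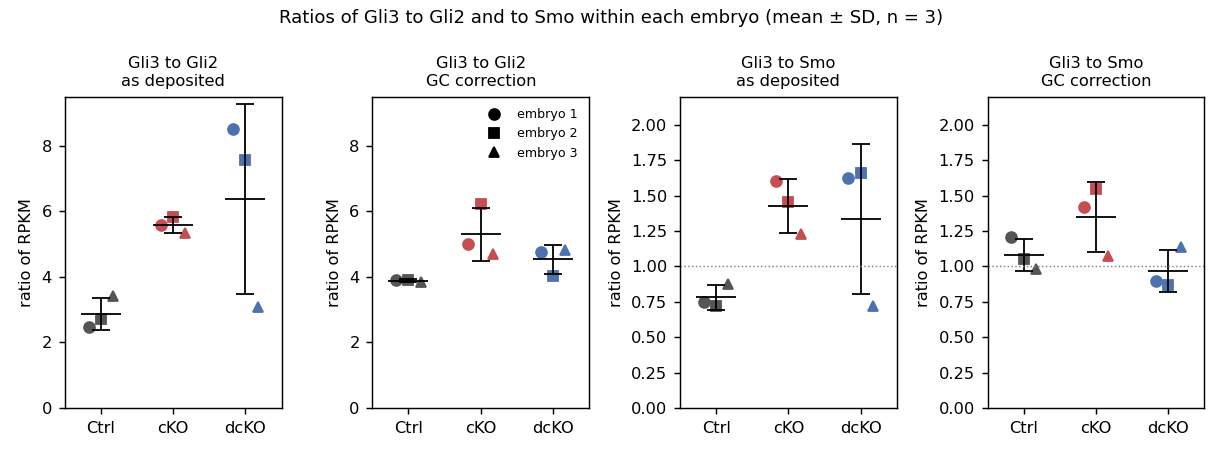
Ratios of Gli3 to Gli2 and of Gli3 to Smo in RPKM, as deposited and after GC correction, with 1 point per embryo and the mean ± SD of 3 embryos. Gli3 to Gli2 was higher in every cKO embryo than in every Ctrl embryo in both versions, whereas the third dcKO embryo (3.09) lay within Ctrl before the correction.

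Genes whose profile was most like that of Gli3 were found by the root-mean-square (RMS) difference, over the 9 embryos, of log2 CPM less the Ctrl mean. They were Rrm2, a subunit of ribonucleotide reductase (RMS 0.0415), Pphln1 (0.0559), Cab39 (0.0691), the casein kinase subunit Csnk2a1 (0.0713) and Rsl24d1 (0.0728). All of them had their highest value in the second dcKO embryo and their lowest in the third, as Gli3 had. They were chosen over these same embryos, so this comes with the choice and is no separate result. For comparison the median RMS of the tested genes was 0.563, and it was 0.904 for Gli2, 0.722 for Smo, 0.698 for Ptch1, 0.526 for Sufu and 0.501 for Gli1. Gli2, Smo and Ptch1 were thus less like Gli3 than most genes were. Gli1 lay near the pseudocount of 0.5 CPM added before the log, which shrinks its differences, so its value is not comparable with the others.

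Ligand genes were barely detected. Shh had 0 reads in all 9 embryos, and Ihh and Dhh had at most 5 and 8 reads. Of 8 genes for ligands and their release 4 were tested, of which 2 were below Ctrl in every cKO embryo (background 28%) and 2 in every dcKO embryo (11.2%), none above, and none was called by edgeR or DESeq2. Disp1, which releases the ligand from the cell, had 14.8, 15.8 and 14.5 CPM in Ctrl, 6.64, 8.14 and 9.65 in cKO, and 7.22, 5.77 and 14.3 in dcKO. Relative to Ctrl, Disp1 was at -0.88 and -0.72 on the log2 scale (SE 0.35 in each, adjusted p = 0.143 and 0.195). The third dcKO embryo lay just below the lowest Ctrl embryo, and without it Disp1 in dcKO was at -1.21 (edgeR adjusted p = 0.00391), in a fit that called 15.2% of all tested genes lower. Without the first or the second dcKO embryo Disp1 was at -0.58 or -0.49, and with the GC correction at -0.34.

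Coreceptor genes lay on both sides of Ctrl, with more of them below it in cKO. Of 9 genes for coreceptors and membrane antagonists 7 were tested, with 5 entirely lower (background 28%) and 1 entirely higher (29.2%) in cKO, at a median log2 fold change of -0.73. In dcKO 2 were lower (11.2%) and 1 higher (15.6%), with a median of -0.31. With the GC correction 5 were lower (31.9%) and 2 higher (25.3%) in cKO (median -0.49), and the median in dcKO turned to 0.07. Boc, a coreceptor for the ligand, had 117, 101 and 83.5 CPM in Ctrl, 36.8, 38.04 and 37.1 in cKO, and 27.1, 66.8 and 70.1 in dcKO. Its log2 change was -1.43 in cKO (SE 0.32, edgeR adjusted p = 0.0509, DESeq2 adjusted p = 0.0011) and -0.88 in dcKO (SE 0.31, edgeR adjusted p = 0.103). edgeR called Boc lower in cKO with the GC correction (-1.16, adjusted p = 0.0404), among 646 genes in all, and Boc in dcKO was at -0.34 (adjusted p = 0.492). Without the correction and the third dcKO embryo Boc was called in dcKO (-1.10, edgeR adjusted p = 0.0141), in a fit that called 15.2% of all tested genes lower. Without the first or the second dcKO embryo Boc was at -0.55 or -1.06 and was not called. Lrp2, an endocytic receptor that binds SHH, went the other way, at 1.26, 1.69 and 2.34 CPM in Ctrl, 3.14, 8.14 and 6.82 in cKO, and 8.83, 7.97 and 5.34 in dcKO. On the log2 scale Lrp2 was at 1.77 in cKO (SE 0.43, edgeR adjusted p = 0.0542) and 2.06 in dcKO (SE 0.44, edgeR adjusted p = 0.0502). DESeq2 called it higher in both (background 4.94% and 4.66%). With the GC correction edgeR also called it in both (adjusted p = 0.0368 and 0.0464), among 646 genes in cKO and 131 in dcKO. Evc, which acts with SMO at the base of the cilium, was at -0.73 in cKO (SE 0.21, adjusted p = 0.0682) and -0.60 in dcKO (SE 0.21, adjusted p = 0.0963), the latter turning to 0.07 with the GC correction. DESeq2 called Boc and Cdon lower in cKO (background 3.87%), and no gene of the list lower in dcKO (3.79%). The antagonist Hhip, another target gene, had at most 39 reads.

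Genes that process or degrade GLI proteins were on both sides of Ctrl. All 16 were tested, with 5 entirely lower (background 28%) and 7 entirely higher (29.2%) in cKO and 2 of each in dcKO (11.2% and 15.6%), and medians of 0.11 and 0.12. With the GC correction 8 were lower (31.9%) and 3 higher (25.3%) in cKO, and the medians turned to -0.05 and -0.08. Grk2, a kinase that supports SMO signalling, was at -0.70 in cKO (SE 0.27, adjusted p = 0.132) and -0.97 in dcKO (SE 0.27, edgeR adjusted p = 0.0624), and DESeq2 called it lower in dcKO (background 3.79%). Among genes of the ubiquitin system, Itch was at 0.59 and 0.72 (adjusted p = 0.0804 and 0.0544), and Cul1 at 0.52 and 0.62 (adjusted p = 0.121 and 0.0759). These were smaller with the GC correction, at -0.39 and -0.46 for Grk2, 0.33 and 0.25 for Itch, and 0.26 and 0.21 for Cul1, and edgeR called none of them. Without the third dcKO embryo Grk2 was called lower in dcKO (-1.40, edgeR adjusted p = 0.000286), in a fit that called 15.2% of all tested genes lower. Without the first or the second dcKO embryo Grk2 was at -0.76 or -0.85 and was not called. Kif7, the ciliary kinesin that controls GLI proteins, was at -0.38 and -0.44 (SE 0.50 in each) and became positive, at 0.24 and 0.23, with the GC correction. The dcKO embryos had 10.2, 5.67 and 27.4 CPM of Kif7, and without the third its log2 fold change in dcKO was -1.30 (edgeR adjusted p = 0.00981). That fit called 15.2% of all tested genes lower. Without the first dcKO embryo Kif7 was at -0.24, and without the second at -0.06. Spop, the adaptor for degradation of full-length GLI proteins, was at -0.28 in cKO (SE 0.20, adjusted p = 0.392) and -0.04 in dcKO.

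Most cilium factors lay above Ctrl in cKO. Of 12 genes, all tested, 11 were entirely above Ctrl in cKO (background 29.2%) and 1, Tulp3, entirely below (28%), with a median log2 fold change of 0.56. In dcKO 7 were above (15.6%) and 1 below (11.2%), with a median of 0.66. DESeq2 called 3 as higher in each mutant (background 4.94% in cKO and 4.66% in dcKO) and edgeR called none. Wdr19, a subunit of the retrograde transport complex, had 20.5, 16.6 and 20.1 CPM in Ctrl, 51.2, 56.2 and 65.5 in cKO, and 79.2, 27.6 and 53.4 in dcKO. Wdr19 was thus at a log2 fold change of 1.59 in cKO (SE 0.33, edgeR adjusted p = 0.0509) and 1.48 in dcKO (SE 0.33, edgeR adjusted p = 0.0503). Ttc21b, of the same complex, was at 1.40 and 1.22 (adjusted p = 0.0509 and 0.0510), and Ift88, of the anterograde complex, at 1.16 and 1.14 (adjusted p = 0.0509 and 0.0502). With the GC correction 9 of the 12 were entirely above Ctrl in cKO (background 25.3%) and 1 below (31.9%). In dcKO 3 of the 12 were above (12.9%) and 1 below (25.3% in either direction). All of those above had also been above before the correction, and the medians over the list were 0.40 and 0.36. With the correction edgeR called Wdr19 (1.38, adjusted p = 0.0313) and Ttc21b (1.15, adjusted p = 0.0465) in cKO, among 646 genes in all.

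**Figure D5:**
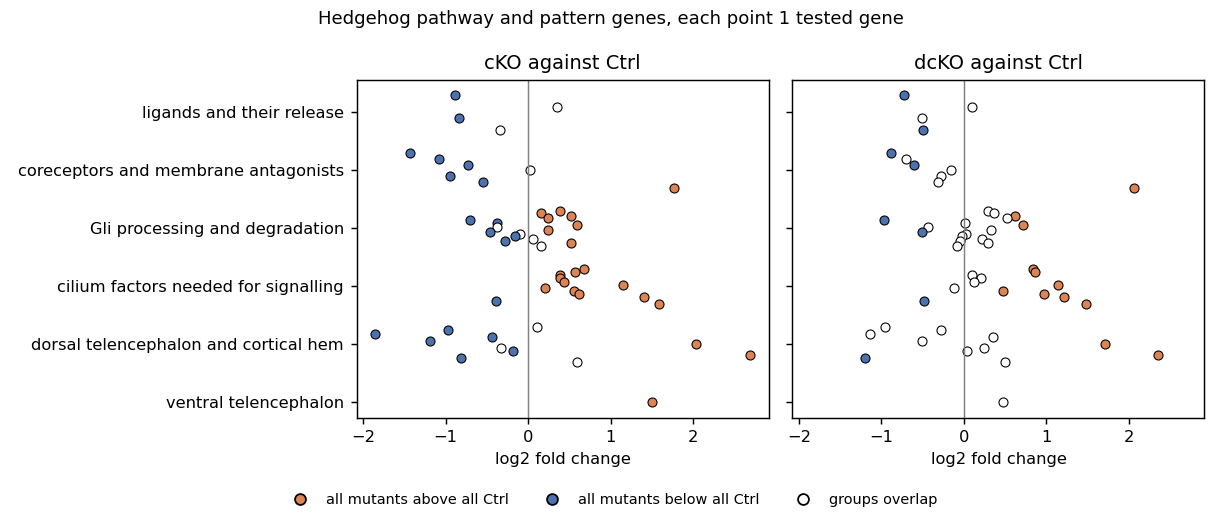
Log2 fold changes in cKO (left) and dcKO (right) of the tested genes of 4 pathway lists and 2 pattern lists, 1 point per gene. Orange points are genes with all mutant embryos above all Ctrl embryos, blue points those below, and open points overlap, and 11 of 12 cilium factors are orange in cKO.

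Target and pattern genes were read beside the pathway. Of Hedgehog targets in progenitors, Mycn had 218, 161 and 143 CPM in Ctrl, 92.3, 79.4 and 96.8 in cKO, and 92.3, 172 and 117 in dcKO. Its difference from Ctrl was -0.96 in cKO on the log2 scale (SE 0.25, edgeR adjusted p = 0.0578) and -0.46 in dcKO (SE 0.25, adjusted p = 0.241), the latter at 0.04 with the GC correction. The cyclin genes Ccnd1 and Ccnd2 were at -1.19 and -1.26 in cKO (edgeR adjusted p = 0.0827 and 0.0692, DESeq2 adjusted p = 0.0216 and 0.00938, called lower by DESeq2, background 3.87%), and at -0.75 each in dcKO (adjusted p = 0.202 and 0.191), where the second dcKO embryo lay within the Ctrl range. Without that embryo Ccnd1 was at -1.44 and Ccnd2 at -1.40 in dcKO (edgeR adjusted p = 0.00347 and 0.00293), in a fit that called 2.58% of all tested genes lower. As each embryo was left out in turn, Ccnd1 in dcKO lay between -1.44 and -0.44 and Ccnd2 between -1.40 and -0.50. Mycn and the cyclins have many other inputs, so they are not a measure of this pathway alone.

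Ventral genes were low throughout. Of 13 ventral telencephalic genes followed, Lhx6, a marker of ventrally born interneurons, passed the filter, and 2 had 0 reads in all embryos. Their summed level was between 1.59 and 1.71 CPM in Ctrl, 2.77 and 4.54 in cKO, and 1.78 and 10.5 in dcKO. Over all embryos together, 54.4% of the summed level was Lhx6. That share did not hold in the dcKO embryo with 10.5 CPM. Lhx6 had at most 120 reads in any embryo, which is less than 54.4% of the sum there. Lhx6 was entirely above Ctrl in cKO at a log2 difference of 1.5 (edgeR adjusted p = 0.0994) and overlapped Ctrl in dcKO (0.47, adjusted p = 0.551). Nkx2-1, which marks the medial ganglionic eminence, had 0 reads except for 18 in the second dcKO embryo. Dlx2, of ventral progenitors, reached 2.25 CPM in the second dcKO embryo and at most 0.33 in the other 8. The part of ventral tissue in the values of that embryo was not tested.

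Of 12 genes of the dorsal telencephalon and cortical hem 11 were tested, with 6 entirely lower (background 28%) and 2 entirely higher (29.2%) in cKO, and 1 lower (11.2%) and 2 higher (15.6%) in dcKO (medians -0.33 and 0.04). With the GC correction the medians were -0.06 and 0.59, with 5 lower (31.9%) and 2 higher (25.3%) in cKO and 2 higher in dcKO (12.9%). The hem genes Wnt2b (2.69 in cKO, SE 0.82, edgeR adjusted p = 0.0802, and 2.36 in dcKO, SE 0.82, adjusted p = 0.0969) and Lmx1a (2.04, SE 0.51, adjusted p = 0.0562, and 1.71, SE 0.51, adjusted p = 0.0710) were higher in every mutant embryo. DESeq2 called both in both mutants (background 4.94% and 4.66% higher). With the GC correction Wnt2b was at 3.06 and 3.07 and Lmx1a at 1.94 and 1.64. edgeR then called both in cKO (adjusted p = 0.0398 and 0.0382), among 646 genes in all, and neither in dcKO. Wnt2b in cKO was at 2.16 without the third Ctrl embryo and 3.44 without the second. Of the other hem genes tested, Wnt8b (0.59 and 0.50) and Bmp4 (0.10 and -0.95) overlapped Ctrl in both mutants. Wnt3a, a further hem gene with at most 571 reads, missed the read filter and was not tested. Its values were above all Ctrl embryos in every embryo of both mutants. Wnt7b was at -0.81 in cKO (adjusted p = 0.101) and -1.19 in dcKO (edgeR adjusted p = 0.0507, called lower by DESeq2, background 3.79%), but at -0.24 in both with the GC correction. Emx1, whose locus drives the Cre, had 120, 69.4 and 43.8 CPM in Ctrl, 20.5, 20.4 and 23.7 in cKO, and 7.94, 17.7 and 80.9 in dcKO. Its log2 fold change of -1.85 in cKO (SE 0.71, edgeR adjusted p = 0.130) was called by DESeq2 (adjusted p = 0.0298, background 3.87%) and was -0.49 with the GC correction. In dcKO Emx1 was at -1.13 (SE 0.69, edgeR adjusted p = 0.296), or -0.12 with the GC correction. The third dcKO embryo lay within the Ctrl range, and without it Emx1 in dcKO was at -2.60 (edgeR adjusted p = 0.00111). That fit called 15.2% of all tested genes lower. As each embryo was left out in turn, Emx1 in dcKO lay between -2.60 and -0.66.

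Markers of the cell types in the tissue were summed, and their part in the values of the Hedgehog genes was not tested. Counts of marker genes entirely lower are to be read against 28% of all tested genes in cKO and 11.2% in dcKO, and entirely higher against 29.2% and 15.6%. The 10 radial glial genes, led by Vim, summed to between 3420 and 3827 CPM in Ctrl, 3117 and 3720 in cKO, and 3154 and 4209 in dcKO, with 5 entirely lower and 1 higher in cKO and 2 lower in dcKO. The 7 genes of intermediate progenitors, led by Eomes, summed to 462 to 565 CPM in Ctrl, 364 to 454 in cKO (4 lower) and 271 to 558 in dcKO (1 lower). The 11 neuronal genes, led by Tubb3, summed to 1659 to 2168 CPM in Ctrl, 1213 to 1724 in cKO (4 lower) and 1003 to 1951 in dcKO (3 lower). The meninges and mesenchyme, which are untouched by Emx1-Cre and can express Gli genes, summed to 819 to 901 CPM in Ctrl, 481 to 738 in cKO and 342 to 546 in dcKO over 9 genes led by Col3a1, of which 3 of 8 tested were lower in cKO and 4 in dcKO. The 7 endothelial genes, led by Kdr, summed to 214 to 292 CPM in Ctrl, 211 to 294 in cKO and 146 to 158 in dcKO (0 and 4 lower). The 8 microglial and blood genes, led by Hbb-y, summed to 5090 to 7335 CPM in Ctrl, 6539 to 10663 in cKO (1 of 7 tested higher) and 3540 to 5151 in dcKO (2 lower). With the GC correction the genes entirely lower in cKO (background 31.9%) were 7 radial glial, 3 of intermediate progenitors, 5 neuronal, 2 meningeal, 0 endothelial and 0 microglial and blood. In dcKO they were 1, 1, 4, 5, 5 and 2 in that order (25.3% in either direction). Entirely higher in cKO (25.3%) were 1 of intermediate progenitors and 2 microglial and blood, and in dcKO none.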

How the data were processed

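The authors extracted RNA from microdissected E12.5 cortices of single embryos, made stranded poly(A) libraries, and processed the reads with FastQC, Cutadapt, STAR (mm39) and featureCounts. The deposited values are raw counts per gene, with 1 column per embryo, and were used without change. Versions and the strand setting of the counting are not given in the sources used here.

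Counts were tested with edgeR 4.0.16 in R 4.3.3 (TMM factors, quasi-likelihood test, genotype as the only term, all 9 embryos in 1 fit) over the 13680 genes whose every library held more than 10 reads, and p-values were adjusted over all of them by the Benjamini-Hochberg method. DESeq2 1.42.0, which the authors used, was run on the same genes. Single genes were also compared with exact two-sided permutation tests of log2 CPM (pseudocount 0.5). Embryos of a genotype are separate animals. The procedure was tested on simulated data. Library depth was 21193798 to 45073349 counts.

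Other settings tried were upper-quartile and RLE factors, DESeq2, no filter, a fit of only the 6 embryos of a comparison, leaving out each embryo, the replicate number as a block, and a GC correction (loess, span 0.3) with and without that block. The longest transcript and the GC correction for ratios between genes were chosen after seeing the data. Gene structures and GC content came from GENCODE M21 on GRCm38, which matched 52081 of 57010 genes to symbols. Python 3.11.15 with SciPy 1.17.1, pandas 2.3.3 and NumPy 2.4.6 served for the rest.

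The members and all gene lists were chosen with earlier results of these data known. Named genes were the 6 members, Cnot3, Trp53, Ccnd1, Ccnd2 and Mycn, up to 3 tested genes of each pathway or pattern list with the largest mean absolute fold change among those with both mutants beyond Ctrl on the same side, genes that define a list (Shh, Hhip, Boc, Kif7, Spop, Ift88, Nkx2-1, Dlx2 and Emx1), the 5 genes closest to Gli3, and the most abundant gene of each marker list. Ihh, Dhh, Cdon, Tulp3, Wnt3a, Wnt8b, Bmp4 and Lhx6 were named after their values were seen. An item of the ventral list is not reported here.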

Additional observations from a re-analysis of the deposited data

How the results depend on the processing

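Of 255 recomputed fold changes of the 5 tested members, 224 kept their direction and their side of the threshold, 18 gained significance and 13 reversed. For the other named genes against Ctrl, 581 of 714 did so, 124 gained significance (25 of them without dcKO replicate 3) and 9 reversed. RLE factors altered none of the member counts. The number of members called in cKO was 1 with upper-quartile factors and 2 with DESeq2, no filter or only the 6 embryos compared, and in dcKO 1 with DESeq2 or no filter. Over all genes, calls in cKO were 424 with upper-quartile factors, 1206 with DESeq2, 813 with no filter, 1758 with only the 6 embryos compared and 646 with the GC correction. In dcKO they were 1157 with DESeq2, 692 with no filter and 131 with the GC correction, and between dcKO and cKO 52 with DESeq2, 8 with no filter, 0 with only the 6 embryos compared and 6 with the GC correction. With that correction 0 members were entirely lower in dcKO, and with upper-quartile factors 1 was entirely higher. Upper-quartile factors shifted the median of all genes in cKO by 0.11 and the GC correction that in dcKO by -0.10 on the log2 scale.

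Among the members, the ratios and the other named genes against Ctrl, values that reversed with the GC correction were Sufu in cKO (0.11), dcKO (0.13) and dcKO against cKO (0.024), Smo in dcKO (0.026), Kif7 in cKO (0.24) and dcKO (0.23), Evc in dcKO (0.065), Mycn in dcKO (0.040), the log2 ratio of Gli3 to Gli2 between dcKO and cKO (-0.22) and that of Gli3 to Smo in dcKO (-0.17). The cause was not tested. Same-numbered embryos did not deviate together (mean r -0.169 over 9 pairs, 0.0836 over 18 pairs of different number). A mean over so few pairs cannot settle whether these numbers pair the embryos. In addition, the library names of 6 embryos share a number with an embryo of another genotype, in 3 pairs, and the sources used here do not say what it marks. The deviations of these pairs correlated at 0.19 and -0.013 (cKO with Ctrl) and -0.54 (dcKO with Ctrl). A fit with that number as a term would leave 1 residual degree of freedom and was not run. Within the pairs, on the scale of log2(CPM + 0.5), Gli2 was at -1.51 and -1.11 in cKO and -0.43 in dcKO, and Smo at -1.23, -0.91 and -0.30. With the replicate block 0 genes were called in any comparison. With the replicate block and GC correction 4 genes were called in cKO, 0 in dcKO and 6 between the mutants, and Sufu (0.11, 0.13 and 0.025), Kif7 (0.25 and 0.21) and Evc in dcKO (0.029) reversed.

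Leaving out each embryo, members called ranged from 0 to 2 in cKO (2 without any dcKO embryo) and from 0 to 2 in dcKO (1 without replicate 2 and 2 without replicate 3 of dcKO). All genes called ranged from 0 to 1476 in cKO, from 0 to 3252 in dcKO and from 0 to 1241 between the mutants, each highest without dcKO replicate 3. Members entirely higher ranged from 0 to 1 in dcKO and from 0 to 2 between the mutants (without dcKO replicate 1), and those entirely lower between the mutants from 0 to 1. In dcKO, Gli3 ranged from -0.39 to 0.17 and Spop from -0.32 to 0.10. Between the mutants, Gli2 ranged from -0.14 to 0.36 (negative without dcKO replicate 3), Gli3 from -0.19 to 0.36, Ptch1 from -0.29 to 0.53 and Sufu from -0.55 to 0.043, the last 3 reversing without dcKO replicate 2. Of the 5 genes closest to Gli3, 5 were again the closest with RLE factors and 2 to 3 with an embryo left out. Lengths from the longest transcript gave Ctrl levels of 68.1 RPKM for Smo and 41.7 for Gli3, in the same order. Depth limits Shh and the ventral genes, and depth and the spread of the embryos limit Gli1, for which small differences were not detectable.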
